A study of Mus musculus with 4 samples.

Results

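The genes of calcineurin and of its best-known substrates were examined in bulge stem cells of the mouse hair follicle. These were the catalytic subunit genes Ppp3ca, Ppp3cb and Ppp3cc, the regulatory subunit gene Ppp3r1, the transcription factor genes Nfatc1, Nfatc2, Nfatc3 and Nfatc4, and the calcineurin regulator genes Rcan1 and Rcan2. They were chosen by gene symbol, keeping each table row that the array's annotation assigned to exactly 1 gene. This gave 10 rows for the 10 genes, among 19935 genes named in the 28815 rows of the table. The CSA group consisted of 2 samples from mice injected in the peritoneum with 100 mg/kg CSA over 3 days, and the vehicle group of 2 samples from mice injected with vehicle over the same time. All mice were CD-1 males aged 56 days after birth, when their follicles are in the second telogen (a phase of rest between hair growth). Cells with both CD34 and alpha6 integrin on their surface were sorted from the skin, and their RNA was amplified and hybridised to 4 one-colour arrays. The labels name no allele or transgene, do not give the number of mice behind a sample and do not spell out CSA, which in work on calcineurin stands for cyclosporine A.

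Calcineurin is a phosphatase that calcium and calmodulin switch on. It consists of a catalytic A subunit and a regulatory B subunit, and it removes phosphates from NFAT proteins, which then enter the nucleus and bind DNA. Cyclosporine A forms a complex with cyclophilin that blocks the phosphatase, so its direct action is on the protein and not on the mRNA of these genes. In the hair follicle Nfatc1 is known as a factor of the bulge that keeps its stem cells at rest, downstream of BMP signals. RCAN proteins bind calcineurin and can inhibit it. The series title sets the experiment within the question of how calcineurin and Nfatc1 tie the rest of skin stem cells to hormonal signals.

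The deposited values are on a log scale taken as log2, and the authors had set each row relative to a baseline of its own, which is not known here. A value of 1 means that the array stood 1 log2 unit above the baseline of that row. Levels can therefore be compared between arrays for 1 gene, and not between genes. As bulk samples were measured, fewer cells of a type and less RNA per cell cannot be told apart. The number of arrays limits the precision of all values, and a p-value here measures only the spread between these samples. The array medians lay between -0.02 and 0.06. The Pearson r across rows, which are no independent replicates, was 0.516 for CSA replicate 2 with vehicle replicate 2 and between 0.02 and 0.168 for the other pairs of arrays. Vehicle replicate 1 was the highest of the 4 arrays for 43.9% of all rows.

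As the baselines are unknown and all 4 arrays hold sorted bulge cells, the purity of the sort could not be tested. The values of 10 markers of the bulge are given as a description. Of these, 9 stood above their baseline on all 4 arrays, as did 3.66% of all rows. Cd34, one of the sort markers, was 1.75 and 3.60 on the CSA arrays, against 4.05 and 4.25 on the vehicle arrays. Itga6, which encodes the alpha6 integrin also used in the sort, was the marker that did not, at -0.70 and -0.53 on the CSA arrays, against -0.9995 and 0.08 on the vehicle arrays. The median of the 10 markers was 0.51 and 1.10 on the CSA arrays, against 1.24 and 1.37 on the vehicle arrays, so that CSA replicate 1 had the lowest value. The 7 rows of differentiated epidermis had medians of -1.16 and -0.67 on the CSA arrays, against 0.47 and -0.40 on the vehicle arrays, and vehicle replicate 1 was the highest array for all 7. Both marker lists had a median difference below 0, in part through single arrays. The median epidermis difference of -0.81 was -0.36 without vehicle replicate 1, and the median bulge difference of -0.33 was -0.18 without CSA replicate 1. The groups did not overlap for 4 of 10 bulge and 4 of 7 epidermis rows, all lower in CSA, against 26.6% of all rows in either direction. Other lists were mostly lower in CSA too: 8 of 8 fibroblast, 8 of 8 endothelial, 8 of 8 muscle, 6 of 7 macrophage, 4 of 7 T-cell and 4 of 6 melanocyte rows. Of all rows 42.1% had a difference above 0. The part of these marker lists in the differences given here was not tested.

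None of the 10 genes passed the test for a difference between CSA and vehicle. limma's moderated test, adjusted by Benjamini-Hochberg over all 28815 rows, called 0 rows (0% of all rows), with no adjusted p below 0.9999. Before adjustment 845 rows, or 2.93% of all, had a limma p under 0.05, and 0 of the 10 genes did; the smallest unadjusted limma p among them was 0.142, for Ppp3cc. The CSA and vehicle arrays did not overlap for 1 of the 10 genes, Ppp3r1, against 26.6% of all rows. They stood at least 1.5-fold apart without overlap for 0 of the 10, against 5.57% of all rows. For each of the 10 genes the gap between the arrays of at least 1 group was larger than the difference between the group means, as it was for 85.1% of all rows. The CSA mean was above the vehicle mean for 8 of the 10 genes, and for 42.1% of all rows, and the median of the 10 differences was 0.10 on the log2 scale against -0.04 over all rows. The size of the difference, without its sign, had a median of 0.10 for these genes and of 0.15 for all rows.

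**Figure D1:**
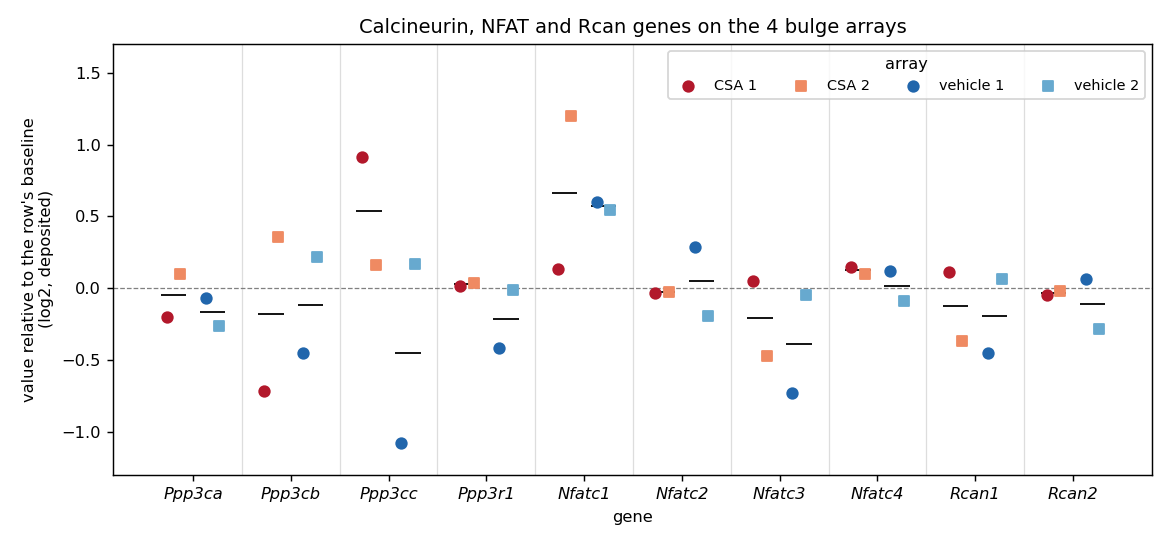
Deposited log2 values relative to each row's unknown baseline (vertical axis) for the 10 genes (horizontal axis) on the 2 CSA arrays (red and orange, left) and the 2 vehicle arrays (dark and light blue, right), with short lines at the group means. Ppp3cc spans the widest range, between 0.91 on CSA replicate 1 and -1.08 on vehicle replicate 1, and Ppp3r1 is the gene whose groups do not overlap.

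Ppp3cc encodes the gamma isoform of the catalytic subunit, best known for its expression in testis. It stood at 0.91 and 0.16 on the CSA arrays, against -1.08 and 0.17 on the vehicle arrays. CSA replicate 2 and vehicle replicate 2 were thus almost equal, and the arrays numbered 1 lay above and below them. The log2 difference of 0.99 ± 0.54 (moderated SE from limma, n = 2 arrays in each group, here and for the differences that follow) had a 95% interval of -0.53 to 2.51 and was larger in size than that of 97.6% of all rows. It shrank to 0.37 when vehicle replicate 1 was left out and to 0.61 when CSA replicate 1 was, and reached 1.62 in the absence of vehicle replicate 2. The 3 named genes with the profile nearest to that of Ppp3cc over the 4 arrays, by Euclidean distance after each row's own mean was removed, were Bicral (distance 0.10), Tent2 (0.11) and B930095G15Rik (0.11). For scale, the profile of Ppp3cc itself lay 1.43 from a flat line. Each of these 3 genes had its lowest value on vehicle replicate 1, which follows from their choice by nearness to Ppp3cc, itself lowest there.

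Ppp3ca and Ppp3cb encode the alpha and beta isoforms of the catalytic subunit, which are expressed in many tissues. Ppp3ca was -0.20 and 0.10 on the CSA arrays, against -0.07 and -0.26 on the vehicle arrays, a difference of 0.12 ± 0.18. Ppp3cb was -0.72 and 0.36 on the CSA arrays, against -0.45 and 0.22 on the vehicle arrays, a difference of -0.06 ± 0.47. Both arrays numbered 1 lay below the baseline for Ppp3cb and both numbered 2 above it, so the spread within each group exceeded the difference between them. The 95% interval was -0.40 to 0.63 for Ppp3ca and -1.40 to 1.27 for Ppp3cb, so that a change of 1.5-fold (0.58 on the log2 scale) in either direction is not excluded for Ppp3cb. The Ppp3ca interval leaves out a fall of that size and reaches just past a gain of it. Without CSA replicate 2 the difference was -0.03 for Ppp3ca and -0.60 for Ppp3cb, and without CSA replicate 1 it was 0.26 and 0.47 in the same gene order.

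Ppp3r1, which encodes the calcium-binding regulatory B subunit, was 0.02 and 0.04 on the CSA arrays, against -0.42 and -0.02 on the vehicle arrays. Both CSA arrays lay above both vehicle arrays, which was the case in that direction for 11.4% of all rows. The difference was 0.24 ± 0.20, with a 95% interval of -0.31 to 0.79. It was 0.04 without vehicle replicate 1, the array that stood below the other three.

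**Figure D2:**
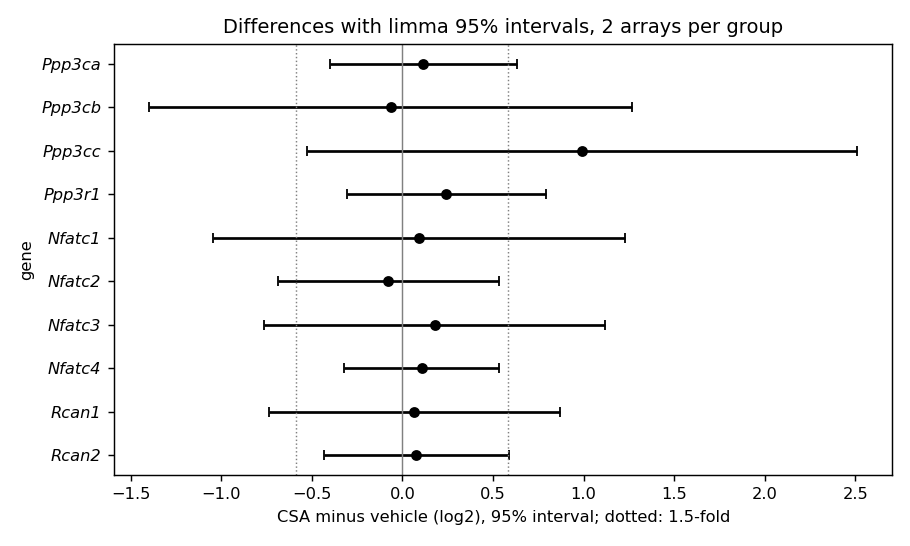
Difference of CSA minus vehicle on the log2 scale (horizontal axis) for each of the 10 genes (vertical axis), with limma's 95% interval and dotted lines at 1.5-fold. Every interval crosses 0, and those of Ppp3cb, Nfatc1, Nfatc2, Nfatc3, Rcan1, Ppp3cc, Ppp3r1, Ppp3ca and Rcan2 cross at least 1 of the dotted lines.

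Nfatc1, the factor named in the series title, was the only one of the 10 genes above its baseline on all 4 arrays. It stood at 0.13 and 1.20 on the CSA arrays, against 0.60 and 0.54 on the vehicle arrays. CSA replicate 1 was the lowest array and CSA replicate 2 the highest, with both vehicle arrays between them and only 0.06 apart. The difference was 0.09 ± 0.41 with a 95% interval of -1.05 to 1.23, which holds more than a 1.5-fold change either way. Its sign followed the CSA array used, at 0.62 without CSA replicate 1 and -0.44 without CSA replicate 2. The row is assigned 6 RefSeq mRNAs of the gene, so the isoforms that differ in their start or end cannot be told apart. The named genes with the nearest profiles were Fndc10 (distance 0.04), Zcwpw1 (0.06) and Gopc (0.07), where the profile of Nfatc1 lay 0.76 from a flat line.

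The differences of the other NFAT genes lay between -0.08 and 0.18 on the log2 scale. Nfatc2, best known as the NFAT factor of T cells, was -0.03 and -0.03 on the CSA arrays, against 0.29 and -0.19 on the vehicle arrays (difference -0.08 ± 0.22). Both CSA arrays lay between the vehicle arrays. Vehicle replicate 1, where Nfatc2 was highest, was also the highest array for 6 of 7 rows of T-cell markers, whose medians were 0.06 and -0.07 on the CSA arrays, against 0.18 and -0.06 on the vehicle arrays. The T-cell marker Cd3g went the other way, with its lowest value, -0.69, on that array. Vehicle replicate 1 was likewise the highest for 6 of 7 macrophage and 7 of 8 endothelial markers, against 43.9% of all rows. For fibroblast markers this held for 5 of 8, for muscle markers 5 of 8, for melanocyte markers 1 of 6 and for bulge markers 1 of 10. The part of any of these cell types in the Nfatc2 value was not tested. Without vehicle replicate 1 the Nfatc2 difference was 0.16, and without vehicle replicate 2 it was -0.32.

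Nfatc3, a member with roles in lymphocyte and muscle development, was 0.05 and -0.47 on the CSA arrays, against -0.73 and -0.05 on the vehicle arrays. The groups overlapped, and the difference was 0.18 ± 0.33 with all arrays and -0.04 after quantile normalization of the 4 arrays. Nfatc4, known for its part in the growth of heart muscle, was 0.15 and 0.10 on the CSA arrays, against 0.12 and -0.09 on the vehicle arrays. It had the narrowest range of the 10 genes (0.23) and the narrowest 95% interval, -0.32 to 0.54 around a difference of 0.11. That interval lies within 1.5-fold on both sides.

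Rcan1 encodes a calcineurin regulator whose shorter isoform is started from an internal promoter that NFAT is known to activate, and its mRNA is often used as a readout of NFAT activity. The RefSeq table of build GRCm38.p6 gives 2 start sites for the gene, 66091 bases apart on the minus strand. The 250 bases before each are shown because they differ in the core letters that NFAT proteins bind, GGAAA, searched on both strands (TTTCC on the other) and set in capitals.
Rcan1 internal start, chr16:92400079-92400328, minus strand: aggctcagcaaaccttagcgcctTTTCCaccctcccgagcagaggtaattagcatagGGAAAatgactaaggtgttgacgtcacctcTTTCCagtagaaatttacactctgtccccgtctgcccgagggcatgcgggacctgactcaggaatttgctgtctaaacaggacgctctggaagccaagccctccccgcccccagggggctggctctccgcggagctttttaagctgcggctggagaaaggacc
Rcan1 distal start, chr16:92466170-92466419, minus strand: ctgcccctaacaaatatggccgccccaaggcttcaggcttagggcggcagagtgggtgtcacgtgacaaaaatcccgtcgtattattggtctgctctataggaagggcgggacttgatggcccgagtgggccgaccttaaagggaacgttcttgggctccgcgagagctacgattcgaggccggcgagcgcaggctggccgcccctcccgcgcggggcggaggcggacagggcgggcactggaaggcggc
The internal window held 3 matches and the distal window 0. Of 32851 RefSeq windows of the same length 55.6% held at least 1 match and 6.39% at least 3; among the 9463 windows within 5 points of the internal window's GC content, 56.4%, the share with at least 3 was 6.27%. The letters TGACTCA, which AP-1 factors bind, occurred 1 time in the internal window (4.46% of all windows hold them) and 0 times in the distal window. A match is a description of the letters and not evidence of binding.

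The Rcan1 row is assigned 2 RefSeq mRNAs, and the value does not part the transcripts of the 2 starts. Rcan1 was 0.11 and -0.37 on the CSA arrays, against -0.45 and 0.06 on the vehicle arrays. Each group held 1 array above and 1 below the baseline, and the difference was 0.07 ± 0.29 (95% interval -0.74 to 0.87). After quantile normalization it was -0.08. Leaving out vehicle replicate 1 gave -0.19, and leaving out CSA replicate 2 gave 0.31. On CSA replicate 2, the array with the highest Nfatc1, Rcan1 was at -0.37, and on CSA replicate 1, with the lowest Nfatc1, it was at its highest. The vehicle arrays had nearly equal Nfatc1, 0.60 and 0.54, yet Rcan1 was at its lowest on replicate 1 and at 0.06 on replicate 2. A relation between the 2 genes was not tested.

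Rcan2, a relative of Rcan1 known mainly from brain and heart, was -0.05 and -0.02 on the CSA arrays, against 0.06 and -0.29 on the vehicle arrays. Its CSA arrays lay between the vehicle arrays, as for Nfatc2, and the difference was 0.08 ± 0.18 (95% interval -0.43 to 0.59). Nfatc4 and Ppp3cb each held 3 matches to GGAAA in the 250 bases before their start, the 2 windows of Nfatc2 held 3 and 1, and those of Nfatc3 held 1 and 0, while Ppp3r1 held 0. The 3 windows of Rcan2 held 2, 0 and 0, and the third of these held TGACTCA 1 time.

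**Figure D3:**
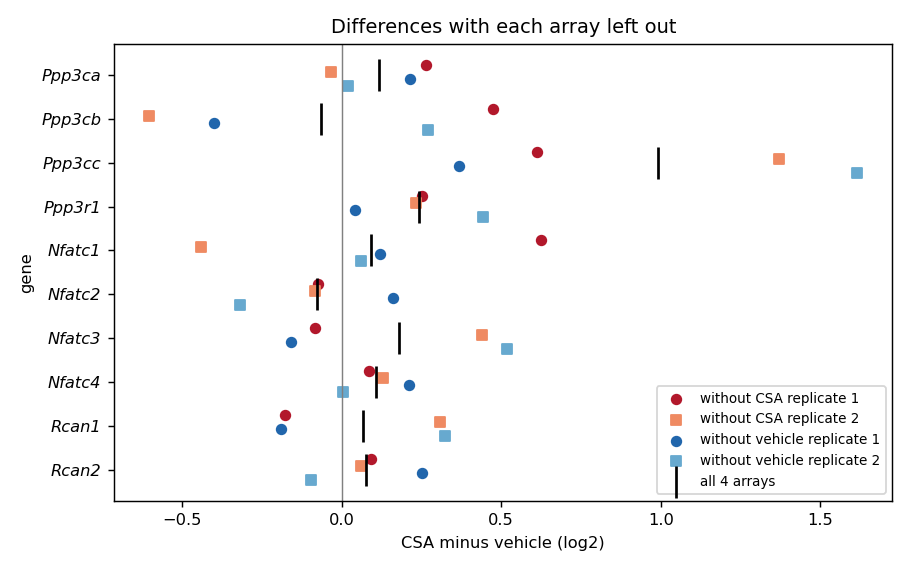
Difference of CSA minus vehicle on the log2 scale (horizontal axis) for each gene (vertical axis) with all 4 arrays (black bar) and with each array left out (coloured points). Nfatc4, Ppp3cc and Ppp3r1 stay above 0 in each of these, and the other 7 genes have points on both sides of 0. Ppp3r1, whose groups do not overlap, could not fall below 0 here.

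The wider pathway was described with 7 gene lists, of which 80 of 83 genes had a row of their own, 91 rows in all. limma called 0 of the 91 rows at an adjusted p under 0.05, and 3 had an unadjusted p under 0.05 (3.30%, against 2.93% of all rows). A gap of 1.5-fold with no overlap between groups was seen for 6 rows (6.59%, against 5.57%), 3 higher and 3 lower in CSA, where 3.62% of all rows were higher and 1.96% lower in this way. The median difference over the 91 rows was -0.03, against -0.04 over all rows.

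Among 10 regulators and scaffolds of calcineurin 7 were above and 3 below 0, with a median difference of 0.06. Chp1, a relative of the regulatory subunit that can inhibit calcineurin, was 0.96 and 0.30 on the CSA arrays, against -1.16 and 0.25 on the vehicle arrays. The difference, 1.09 ± 0.57, shrank to 0.39 when vehicle replicate 1 was left out. Akap5, a scaffold that holds calcineurin near its substrates, was 1.10 and 0.05 on the CSA arrays, against -0.06 and -0.01 on the vehicle arrays (0.61 ± 0.40, and 0.08 when CSA replicate 1 was left out). For both genes the groups did not overlap, with 1 array far from the other 3. Rcan3, the third RCAN gene, differed by -0.34 ± 0.44, which turned to 0.24 when CSA replicate 1 was left out and was -0.92 in the absence of CSA replicate 2. Myoz2, a muscle protein that binds calcineurin, differed by 0.17 ± 0.15, and by 0.07 when vehicle replicate 2 was left out. Its groups did not overlap either, which made 3 of the 10 rows, all higher in CSA. In that direction 11.4% of all rows did not overlap.

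The 13 rows of immunosuppressant-binding proteins had 5 differences above and 8 below 0 (median -0.03). Ppia, cyclophilin A and the main intracellular receptor of cyclosporine A, had 7 rows. In 6 of them the groups overlapped, with differences between -0.06 and 3.67e-05. The row of Ppia with the largest moderated t was -0.14 and -0.19 on the CSA arrays, against 0.07 and 0.05 on the vehicle arrays (-0.22 ± 0.13). Fkbp1a, which binds the other calcineurin inhibitor tacrolimus, was 0.14 and 0.28 on the CSA arrays, against 0.02 and -0.02 on the vehicle arrays (0.21 ± 0.14). The mitochondrial cyclophilin gene Ppif differed by -0.21 ± 0.16 and Fkbp1b by -0.28 ± 0.26. For Fkbp1b the difference was -0.01 when vehicle replicate 2 was left out. Of the 13 rows, 1 was higher in CSA without overlap, Fkbp1a, and 2 were lower, this Ppia row and Ppif. Over all rows 26.6% did not overlap. No row of the list passed the test.

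Kinases, carriers and partners of NFAT were split, with 12 rows above and 11 below 0 (median 0.01). Mapk9, a JNK kinase, was 0.80 and 0.41 on the CSA arrays, against -0.94 and -0.06 on the vehicle arrays. It differed by 1.10 ± 0.37 with an unadjusted limma p of 0.0428 and an adjusted p of 0.9999. With 1 array left out the difference was 0.66 to 1.54, and its sign could not turn because the groups did not overlap. Csnk1e, a casein kinase, differed by 0.53 ± 0.29 and Dyrk2, a kinase that phosphorylates NFAT, by 0.59 ± 0.44; without CSA replicate 1 these were 0.18 and 0.02. Homer2, a scaffold that competes with calcineurin for NFAT, had a row at -0.12 and 0.37 on the CSA arrays, against 0.16 and 1.34 on the vehicle arrays (-0.62 ± 0.48, and -0.03 when vehicle replicate 2 was left out). The second Homer2 row differed by -0.38 ± 0.72, which turned to 0.59 in the absence of the same array.

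Of the 14 rows of calmodulin and calcium entry or release genes 5 were above and 9 below 0 (median -0.08). Itpr3, an inositol trisphosphate receptor that releases calcium from the endoplasmic reticulum, was 0.10 and -0.10 on the CSA arrays, against 0.63 and 0.55 on the vehicle arrays. This difference (-0.59 ± 0.15) had an unadjusted limma p of 0.0196 and an adjusted p of 0.9999, and lay between -0.70 and -0.49 with each array left out. The groups of Itpr3 did not overlap, so leaving out 1 array could not turn its sign. The calcium channel genes Orai1 and Orai2 differed by 0.22 ± 0.13 and -0.20 ± 0.13; a second Orai2 row had overlapping groups and a difference of -0.05 ± 0.17. Itpr2 differed by -0.39 ± 0.27, and by -0.11 when vehicle replicate 2 was left out.

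Of the 16 rows of NFAT targets known from T cells 3 were above and 13 below 0 (median -0.12), where 42.1% of all rows were above 0. Without vehicle replicate 1 the median was -0.03, and that array was the highest for 10 of the 16, against 43.9% of all rows. Values relative to a row's own baseline do not show whether these genes were expressed in the sorted cells. Ptgs2, which encodes cyclooxygenase 2, was -1.40 and -0.74 on the CSA arrays, against -0.10 and 0.10 on the vehicle arrays, with an unadjusted limma p of 0.0196 and an adjusted p of 0.9999. The zinc finger factor gene Egr2 stood at -1.19 and -2.35 on the CSA arrays, against -0.49 and -1.50 on the vehicle arrays, with overlap, and its difference of -0.78 ± 0.57 shrank to -0.20 when CSA replicate 2 was left out. The cytokine genes Il5 and Ifng differed by -0.29 ± 0.18 and -0.25 ± 0.18, and by -0.12 and -0.08 when vehicle replicate 1 was left out. The 8 NFATc1 targets known from osteoclasts had a median of -0.02 that was 0.11 without vehicle replicate 1, with Acp5 at 0.27 ± 0.23, Ctsk at 0.16 ± 0.18, Dcstamp at -0.18 ± 0.15 and Calcr at -0.06 ± 0.17. When vehicle replicate 2 was left out Acp5 was at 0.01 and Ctsk at 0.002, and in the absence of vehicle replicate 1 Calcr turned to 0.06.

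**Figure D4:**
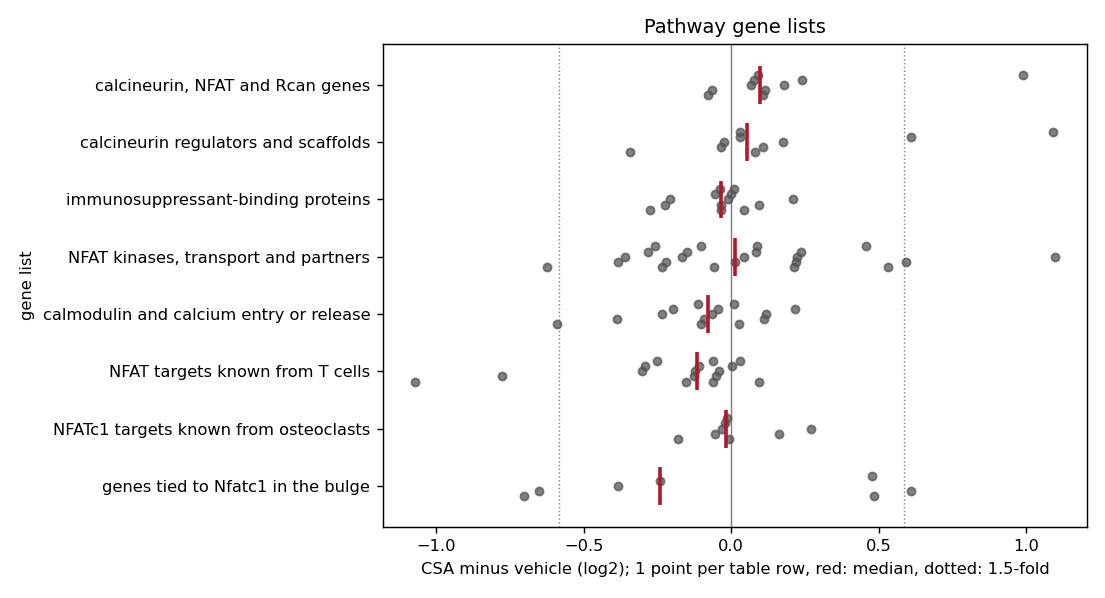
Difference of CSA minus vehicle on the log2 scale (horizontal axis) for each row of the 10 genes (top) and of the 7 pathway lists (vertical axis), with red lines at the list medians and dotted lines at 1.5-fold. The list medians lie between -0.24 and 0.10, and most points lie within the dotted lines.

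Genes tied to Nfatc1 in the bulge were read last, 7 of 8 with a row of their own, 3 above and 4 below 0. The list's median was -0.24; leaving out CSA replicate 2 gave -0.11 and leaving out vehicle replicate 2 gave 0.20. Foxc1, a forkhead factor known to act with Nfatc1 in these cells, was 1.14 and 0.55 on the CSA arrays, against -0.26 and 0.73 on the vehicle arrays. The difference, 0.61 ± 0.43, shrank to 0.12 when vehicle replicate 1 was left out. Bmpr1a, the BMP receptor upstream of Nfatc1, was 0.003 and -0.54 on the CSA arrays, against 0.17 and 0.06 on the vehicle arrays (-0.38 ± 0.24). The BMP ligand genes Bmp4 and Bmp6 differed by -0.65 ± 0.42 and 0.48 ± 0.46. When vehicle replicate 1 was left out Bmp4 was at -0.11, and when CSA replicate 1 was, Bmp6 turned to -0.12. The BMP effector genes Smad5 and Smad1 differed by 0.48 ± 0.24 and -0.24 ± 0.35; leaving out vehicle replicate 1 gave 0.23 for Smad5, and leaving out vehicle replicate 2 turned Smad1 to 0.20. Without CSA replicate 2 the Bmpr1a difference was -0.11. Cdk4, a G1 kinase gene known to be repressed by Nfatc1 in the bulge, differed by -0.70 ± 0.52. Without CSA replicate 1 that difference was -0.16. The groups overlapped for Cdk4, Foxc1, Bmp6 and Smad1. They did not for Smad5, higher in CSA, and for Bmpr1a and Bmp4, lower in CSA, where 26.6% of all rows did not overlap. Bmp4 was -1.24 and -1.03 on the CSA arrays, against 0.06 and -1.02 on the vehicle arrays. The prolactin receptor gene Prlr, the remaining gene of the list, was not analysed here.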

How the data were processed

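RNA of 2 CSA and 2 vehicle samples of sorted bulge cells was measured on one-colour arrays after amplification of 20 ng into biotin-labelled cDNA, per the labels' protocols. The deposited values are on a log scale taken as log2, centred per row by the authors on a baseline not given in the sources used here; a median of 0 over these 4 arrays, within 1e-04, held for 11.4% of rows. No source used here describes how the arrays were background-corrected, summarized or normalized; the build mm8 is the only item in the submitters' processing notes.

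Of 28815 rows, 21780 named 1 gene in the platform's annotation, 1605 several and 5430 were not listed. All rows entered limma 3.58.1 (R 4.3.3; lmFit, eBayes without a trend, no filter, no block, two-sided), with Benjamini-Hochberg adjustment over all rows and a threshold of 0.05. The prior degrees of freedom were 1.88. An exact permutation test of 2 arrays against 2 cannot go below p = 0.333 and was not used. Named genes were the 10 chosen genes, up to 4 genes per pathway list with the largest absolute moderated t, all genes of the bulge list of Nfatc1, and for Nfatc1 and the gene with the widest range the 3 nearest profiles. Members and lists were chosen with earlier results of these data known. In 10 simulations of 28815 rows with 200 changed, limma called 0% of rows changed by 1 on the log2 scale, 17.8% at 2, 42.6% at 3 and 56.6% at 4. These drew normal values independently for each row and array, with the row's own fitted spread. They held none of the likeness between the real arrays, so the shares do not measure the power of this experiment. Alternatives were a trend, other scalings, a filter, named rows only, a replicate block, each array left out, and the mean of a gene's rows. Promoter windows came from RefSeq (GRCm38.p6); those of 7 of the 10 genes were used, and Nfatc1, Ppp3ca and Ppp3cc were not analysed here in this respect. Since that build differs from mm8, no other coordinates are given.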

Additional observations from a re-analysis of the deposited data

How the results depend on the processing

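limma called 0 rows under each setting with all 4 arrays for which rows were counted, the reported one included. The smallest adjusted limma p among these was 0.868, with the replicate block. For the mean of a gene's rows only the 10 genes were read. Rows 1.5-fold apart without overlap numbered 1606, and 889 with rows at or above the 25th percentile of the mean, a filter that keeps 21611 rows and 4 of the 10 genes (Nfatc1, Nfatc2, Nfatc4 and Ppp3cc). With an array left out they numbered between 2184 and 4553; 1 array against 2 overlaps less often by construction. Of 104 differences of the 10 genes under an alternative 92 kept their sign and 12 did not. The 92 include differences that could not turn. The trend, the filter, named rows only, the replicate block and the mean of a gene's rows could not change an estimate. The groups are of equal size and each of the 10 genes has 1 row, so the signs under these settings were fixed in advance. All 12 turns came with quantile normalization or with an array left out. After quantile normalization Nfatc3 was -0.039 and Rcan1 -0.080. With each array left out in turn, 7 genes had differences on both sides of 0: Nfatc1 from -0.44 to 0.62, Nfatc2 from -0.32 to 0.16, Nfatc3 from -0.16 to 0.52, Ppp3ca from -0.033 to 0.26, Ppp3cb from -0.602 to 0.47, Rcan1 from -0.19 to 0.32 and Rcan2 from -0.096 to 0.25. The cause of each turn after quantile normalization was not tested. Nfatc4, Ppp3cc and Ppp3r1 kept their sign under all alternatives run that gave them a value. For Ppp3r1, whose groups did not overlap, leaving out 1 array could not turn it. No gene of the 10 had an adjusted limma p below 0.649 under any setting. The labels share replicate numbers and nothing else pairs the samples. Deviations of same-numbered arrays from their group means had a Pearson r of 0.216 over rows. With the replicate number as a block limma called 0 rows, with 1366 at an unadjusted p under 0.05 against 845 without it. The standard error of Ppp3cb fell most, to 0.17 from 0.47. It rose for Nfatc3, Ppp3ca, Rcan1 and Ppp3cc, for the last to 0.61 from 0.54, and fell for the other genes. Replicate 1 lay on the same side of replicate 2 in both groups for 3 of the 10 genes, against 62.6% of all rows.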
